A study of Mus musculus with 6 samples.

Results

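The transcripts of 10 genes of apical-basal cell polarity were followed in mouse whole hearts at E9.5 (embryonic day 9.5). They encode the PAR complex that binds the small GTPase Cdc42 (Pard3, Pard6a, Pard6b, Pard6g, Prkci and Prkcz), the Crumbs protein CRB2, and the Scribble module of the opposite domain (Llgl1, Dlg1 and Scrib). The members were chosen by name, with earlier results of these data known. All 10 were found among the 30323 gene IDs of the table, and all 10 were among the 14697 genes with enough counts to be tested. Hearts in which Cdc42 was knocked out in the myocardium (MCKO, labelled with a knockout genotype) were compared with control hearts (labelled C57BL/6), with 3 libraries in each group. The sources used here name neither the promoter that drives the deletion, nor the alleles of the controls, nor the strain of the MCKO embryos. A set consists of 3 hearts according to the submitters, but no label ties a library to one heart or litter. The p-values therefore rest on the spread between these libraries alone, part or all of which may be technical.

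In polarised cells GTP-bound Cdc42 binds PAR6, and PAR6 brings atypical protein kinase C (aPKC) to the scaffold PAR3 at the apical domain and at junctions. Crumbs anchors the same machinery to the apical membrane, while LGL, DLG and Scribble mark the basolateral side. The 2 sides exclude each other, with aPKC phosphorylating LGL and so keeping it off the apical cortex. In the mouse heart, aPKC iota takes part in the oriented divisions that build trabeculae, and in zebrafish heart muscle Crb2a marks polarity of the muscle cells.

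The libraries held 23883877 to 34246477 estimated counts in MCKO and 19256840 to 32169289 in controls, so 3 counts corresponded to 0.0876 to 0.156 CPM (estimated counts scaled to a common library total). Cdc42 itself was at 247.6, 240.8 and 238.5 CPM in MCKO libraries, against 398.8, 377.3 and 423.7 CPM in control libraries, a log2 fold change of -0.66 (SE 0.047, edgeR adjusted p = 2.93e-06). The 3 MCKO libraries lay below all 3 control libraries. The exon deleted is not named in the labels. Heart muscle markers summed to 46890 to 48460 CPM in MCKO and 40440 to 44210 CPM in controls, and none of the 14 was at 0. Much of that difference lay in Myh7, at a mean of 10130 CPM in MCKO and 6332 CPM in controls. Of the 14 genes, 5 were called higher, 2 were called lower and 7 were not called. Of all tested genes, 58.4% were called at an adjusted p under 0.05 (29.3% higher and 29.1% lower in MCKO), and 65.5% had groups that did not overlap in CPM. Principal component 1, with 75% of the variance, split the libraries by group, and the labels name no batch.

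The polarity genes differed by small amounts and in both directions. By edgeR's quasi-likelihood test with Benjamini-Hochberg adjustment over all tested genes, 7 of the 10 members were called, close to the 58.4% of all genes. Those higher in MCKO were Pard3, Prkcz, Llgl1 and Dlg1, and those lower were Pard6g, Crb2 and Scrib. Pard6a, Pard6b and Prkci were not called. The median log2 fold change was 0.079, against 0.00057 over all tested genes, and the median absolute log2 fold change was 0.26, against 0.31. None of the 10 reached a 2-fold difference in either direction, which 11.7% of all tested genes did. For 9 of the 10 members every library of one group lay above every library of the other in CPM, against 65.5% of all genes. CPM uses library totals, while the log2 fold changes use TMM scaling factors, at 0.975 to 0.982 in MCKO and 1.02 to 1.03 in controls. MCKO values therefore sit lower in CPM than with TMM, and the narrow separations of Pard6b and Prkci depend on that choice. These are bulk samples, in which fewer cells of a type and less RNA per cell cannot be told apart.

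**Figure D1:**
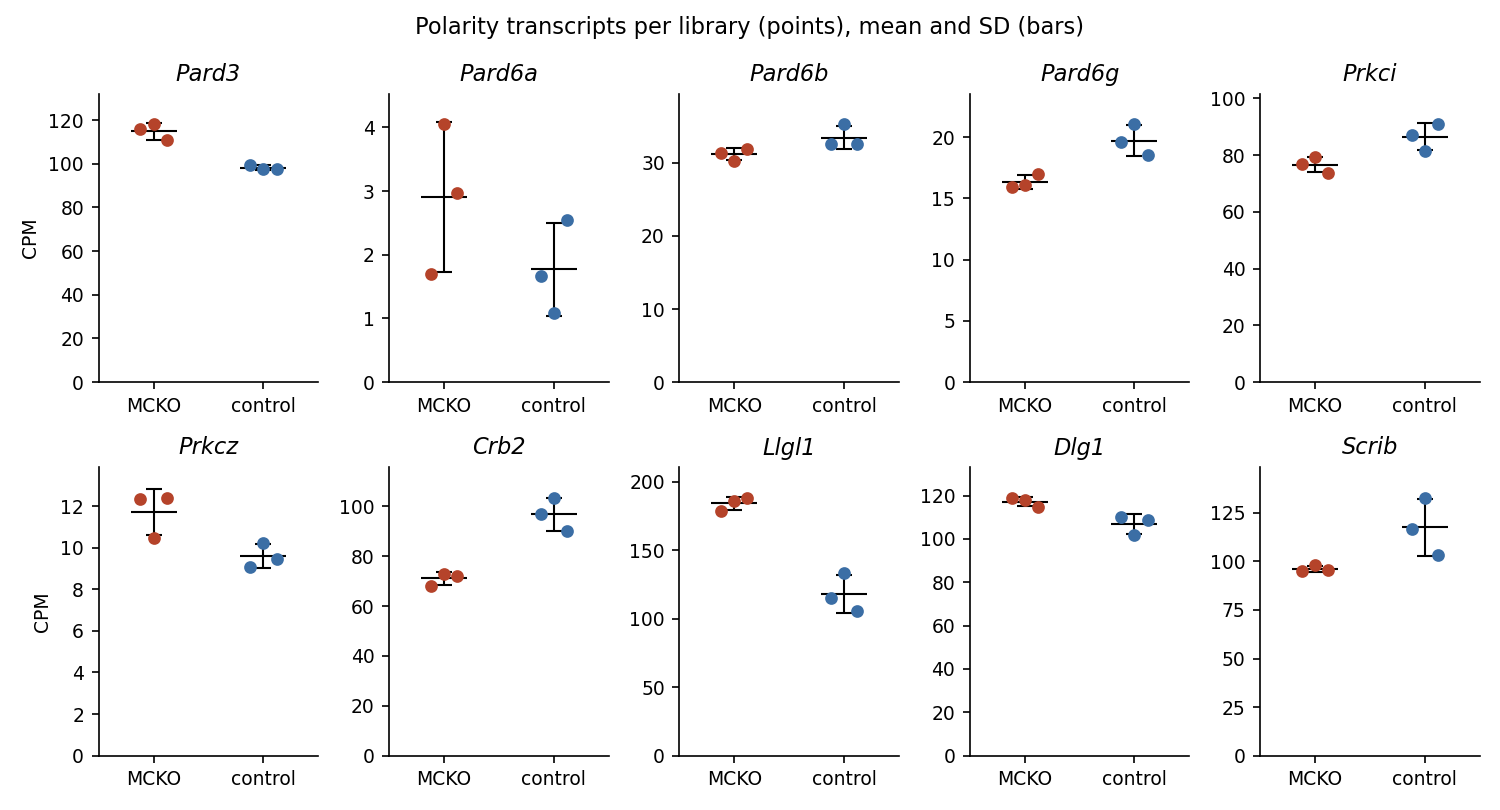
CPM of the 10 polarity genes in each library (points, 3 per group, MCKO left and control right), with the group mean and SD as bars; each panel has its own axis from 0. Llgl1 sits at 178.9 to 188.3 CPM in MCKO and 105.9 to 133.4 CPM in controls, Crb2 at 68.1 to 73.1 and 90.1 to 103.4 CPM, and the Pard6a groups overlap.

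Levels can be compared between genes only per length, here as CPM per kilobase of the longest annotated coding transcript (GENCODE M21). On that scale Llgl1 was the highest member in both groups, at 42.8 ± 1.1 CPM per kilobase in MCKO and 27.4 ± 3.3 in controls (SD, n = 3 each). It stood at the 89.3rd percentile of 14600 tested genes in MCKO and the 82nd in controls. A middle group in controls ran from Scrib at 21 ± 2.6 through Prkci at 18.4 ± 0.98, Dlg1 at 17.4 ± 0.73 and Pard3 at 16.9 ± 0.19 to Crb2 at 15.2 ± 1.0 CPM per kilobase. Among neighbours in this order, the ranges of the control libraries overlapped for Scrib and Prkci, for Prkci and Dlg1, and for Dlg1 and Pard3, and for no other pair. Lower still were Pard6b at 9.84 ± 0.46 and Pard6g at 6.26 ± 0.40, and the lowest were Prkcz at 2.35 ± 0.14 and Pard6a at 1.39 ± 0.58 CPM per kilobase. In MCKO the order of the middle group was Pard3 at 19.7 ± 0.65, Dlg1 at 19.1 ± 0.36, Scrib at 17.2 ± 0.30, Prkci at 16.3 ± 0.58 and Crb2 at 11.2 ± 0.42. There the ranges overlapped only for Pard3 and Dlg1 and, at the low end, for Prkcz and Pard6a. With the union of all annotated exons as the length, Pard3 moved to rank 7 of the 10 in controls, its length being 14506 bases in place of 5815. Crb2 moved to rank 4, Dlg1 to rank 5 and Pard6b to rank 6 there. In MCKO, Pard3 then stood at 7.91 CPM per kilobase, below Pard6b at 9.18. The order of the middle group and the overlaps between neighbours therefore hold for the longest transcript only.

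**Figure D2:**
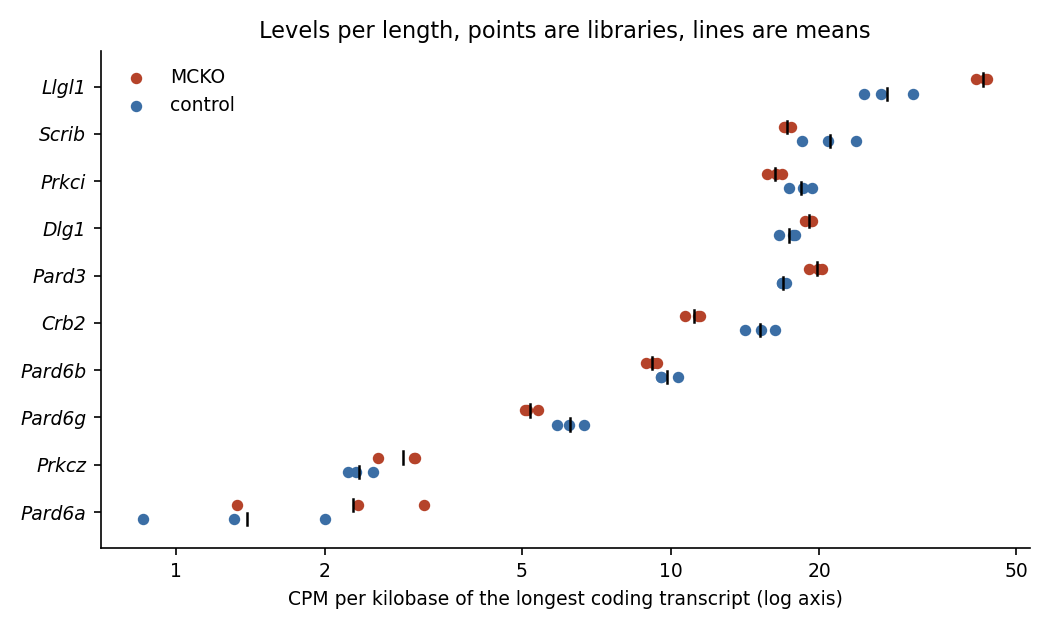
CPM per kilobase of the longest coding transcript (log axis) for the 10 polarity genes, with 1 point per library, MCKO above control in each pair and a line at the mean. Llgl1 is the highest and Pard6a the lowest member in both groups, and Scrib, Prkci, Dlg1 and Pard3 lie close together.

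PAR3, the scaffold that gathers the complex at junctions, had a higher transcript level in MCKO. Pard3 was at 115.7, 118.0 and 110.7 CPM in MCKO libraries, against 99.5, 97.5 and 97.7 CPM in control libraries. Every MCKO library lay above every control library, and the controls lay close together. Its log2 fold change came to 0.29 (SE 0.041, edgeR adjusted p = 0.000286). Pard3 (ENSMUSG00000025812) is a protein-coding gene on the plus strand of chromosome 8 at 127063893 to 127612286 in GRCm38, with 28 annotated transcripts that the table sums into 1 value. Isoforms with and without the aPKC-binding part could therefore not be separated.

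The PAR6 adaptors carry the binding site for Cdc42 itself and are encoded by Pard6a (chromosome 8, 105701148 to 105703496, plus strand), Pard6b (chromosome 2, 168081004 to 168101203, plus strand) and Pard6g (chromosome 18, 80046890 to 80119639, plus strand). Pard6b, the most abundant of them, was at 31.4, 30.3 and 31.9 CPM in MCKO libraries, against 32.5, 35.3 and 32.5 CPM in control libraries. In CPM the MCKO values lay just below the control values, a separation that depends on scaling by library totals. The log2 fold change of -0.036 (SE 0.058, edgeR adjusted p = 0.616) was not called. Without control replicate 2 it was 0.0016 (adjusted p = 0.983), and with a correction for GC content it was -0.13 (adjusted p = 0.0409). That correction moves the median of all tested genes to -0.046. Pard6g was at 15.9, 16.1 and 17.0 CPM in MCKO libraries, against 19.6, 21.0 and 18.5 CPM in control libraries, again without overlap. It was called lower, at -0.21 (SE 0.072, edgeR adjusted p = 0.0324). That call was lost without MCKO replicate 1 or 2 (adjusted p = 0.108 and 0.102), without control replicate 1 or 2 (0.0697 and 0.0789) and with DESeq2 (0.091), each with the direction kept.

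Pard6a rested on few reads and varied within both groups. It had 58, 104 and 71 counts in MCKO libraries, against 45, 21 and 82 counts in control libraries, which is 1.69, 4.04 and 2.97 CPM against 1.67, 1.09 and 2.55 CPM. The lowest MCKO library lay beside the middle control library. The log2 fold change of 0.72 (SE 0.39, edgeR adjusted p = 0.151) was as large as that of Llgl1 but was not called. Without MCKO replicate 1 it was 1.02 and called (adjusted p = 0.0299), without MCKO replicate 2 it was 0.41 (adjusted p = 0.405), and without control replicate 3 it was 1.09 (adjusted p = 0.0609).

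As shares of the PAR6 family per length, Pard6a took 8.52, 18.5 and 13.6% in MCKO libraries, against 7.66, 4.78 and 11.5% in control libraries. Pard6b took 59.1, 51.8 and 54.9% in MCKO libraries, against 56.0, 57.9 and 54.8% in control libraries. Pard6g took 32.4, 29.8 and 31.5% in MCKO libraries, against 36.4, 37.3 and 33.7% in control libraries. Pard6b thus held the largest share in all 6 libraries, and the only share whose groups did not overlap was that of Pard6g. No 31-base word of one PAR6 gene's transcripts occurred in another's, so reads of the 3 genes can be told apart.

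The kinase of the complex comes from 2 genes, Prkci (chromosome 3, 30995747 to 31052959, plus strand) for aPKC iota and Prkcz (chromosome 4, 155260129 to 155361361, minus strand) for aPKC zeta. Prkci was at 76.8, 79.3 and 73.8 CPM in MCKO libraries, against 87.2, 81.6 and 90.8 CPM in control libraries. The groups did not overlap in CPM, a separation that depends on scaling by library totals. The log2 fold change of -0.12 (SE 0.051, edgeR adjusted p = 0.0762) was not called. It was called at -0.15 without control replicate 2 (adjusted p = 0.02) and at -0.18 with library totals only (adjusted p = 0.0164), a scaling that moves the median of all tested genes to -0.061. Prkcz was at 12.4, 10.5 and 12.4 CPM in MCKO libraries, against 9.08, 10.2 and 9.45 CPM in control libraries. MCKO replicate 2 lay close to the highest control library. This was a log2 fold change of 0.36 (SE 0.098, edgeR adjusted p = 0.0114), and the gene was called in all 13 alternatives (adjusted p = 0.0071 to 0.0469).

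Per length, Prkcz made up 15.6, 13.2 and 16.2% of the aPKC pair in MCKO libraries, against 10.7, 12.6 and 10.7% in control libraries. Prkci remained the main aPKC transcript in all 6 libraries. Of the 31-base words in Prkcz transcripts, 18.3% also occur in the annotated gene Prkcz2, which makes the Prkcz value less certain. For the other 9 members the share found in any other gene was at most 1.69%, and Prkci and Prkcz shared no word. For Cdc42, which is not a member, the share was 7.12%, so its level is also less certain.

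CRB2, the Crumbs protein that anchors the apical domain, had a lower transcript level in MCKO. Crb2 was at 68.1, 73.1 and 72.3 CPM in MCKO libraries, against 97.1, 103.4 and 90.1 CPM in control libraries. All MCKO libraries lay well below the lowest control library. Crb2 had a log2 fold change of -0.38 (SE 0.060, edgeR adjusted p = 0.000495), and with a correction for GC content it was -0.65 (adjusted p = 8.71e-09). Crb2 (ENSMUSG00000035403) lies on the plus strand of chromosome 2 at 37776249 to 37799103 in GRCm38, and an exon overlaps Dennd1a on the other strand. The strand setting of the counting is not given. Dennd1a was at 29.4 to 30.6 CPM in MCKO and 25.5 to 29.3 CPM in controls, a log2 fold change of 0.19 (SE 0.065, edgeR adjusted p = 0.0298), and 1.27% of Crb2 words occur in other genes.

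LLGL1, a basolateral protein that aPKC phosphorylates and displaces, showed the largest called difference among the members. Llgl1 was at 178.9, 185.8 and 188.3 CPM in MCKO libraries, against 114.9, 133.4 and 105.9 CPM in control libraries. The groups lay far apart, with the spread larger among controls. Llgl1 had a log2 fold change of 0.71 (SE 0.080, edgeR adjusted p = 0.000104), and it ran from 0.48 with the GC correction to 0.80 without control replicate 2 over the 13 alternatives, with a call in each. Llgl1 (ENSMUSG00000020536) lies on the plus strand of chromosome 11 at 60699723 to 60714186 in GRCm38 and has an exon overlap with Flii on the other strand. Flii was at 148.9 to 154.3 CPM in MCKO and 139.4 to 158.3 CPM in controls, and its log2 fold change of 0.096 (SE 0.054, edgeR adjusted p = 0.156) was not called.

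DLG1, a scaffold with PDZ domains (chromosome 16, 31663443 to 31875129, plus strand), and Scribble, the scaffold that gives the module its name (chromosome 15, 76047158 to 76069784, minus strand), were called in opposite directions. Dlg1 was at 118.9, 118.0 and 114.7 CPM in MCKO libraries, against 109.9, 101.6 and 108.8 CPM in control libraries. The groups did not overlap and the difference was small, at a log2 fold change of 0.20 (SE 0.044, edgeR adjusted p = 0.00383). Scrib was at 94.9, 98.0 and 95.5 CPM in MCKO libraries, against 116.7, 132.7 and 103.2 CPM in control libraries. The MCKO libraries lay close together while the controls were spread widely. The log2 fold change of -0.23 (SE 0.085, edgeR adjusted p = 0.0478) was just under the threshold. The Scrib call was lost without MCKO replicate 1, 2 or 3 (adjusted p = 0.119, 0.0961 and 0.115) and without control replicate 1 or 2 (0.0917 and 0.0726), always at a lower level in MCKO, while with the GC correction the value was -0.56 (adjusted p = 1.2e-07).

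Base composition differed between the libraries. Among the 3 control libraries, Scrib, Crb2 and Llgl1, whose longest transcripts are 61.2, 59.2 and 58.3% GC, were highest in replicate 2 and lowest in replicate 3. Pard6b and Pard6g, at 53.8 and 49.2% GC, had the same order, and Prkcz, at 52.4%, was also highest in replicate 2. Among the same 3 libraries, Prkci and Dlg1, at 44.5 and 43.8% GC, were lowest in replicate 2, as were Pard3 at 52.8% and Pard6a at 57.4% GC. The order of the control libraries thus did not follow GC content in every member. Over all tested genes, the tenth with the most GC stood above the tenth with the least by 0.016, 0.17 and 0.25 on the log2 scale in MCKO replicates 1, 2 and 3, against -0.11, 0.092 and -0.42 in control replicates 1, 2 and 3, each as a deviation from the mean of the 6 libraries. Control replicates 1 and 3 thus stood below all MCKO libraries, and control replicate 2 stood above MCKO replicate 1. Each library was then corrected along GC content, which moved the median log2 fold change of all tested genes to -0.046. The correction has no term for group, so it also takes out any difference between the groups that follows GC content. Whether such a difference is technical was not tested. With that correction Scrib, Crb2 and Llgl1 kept their directions and their calls. Pard3, Prkcz, Pard6g and Dlg1 also kept theirs, at 0.22, 0.30, -0.20 and 0.22 with the correction.

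**Figure D3:**
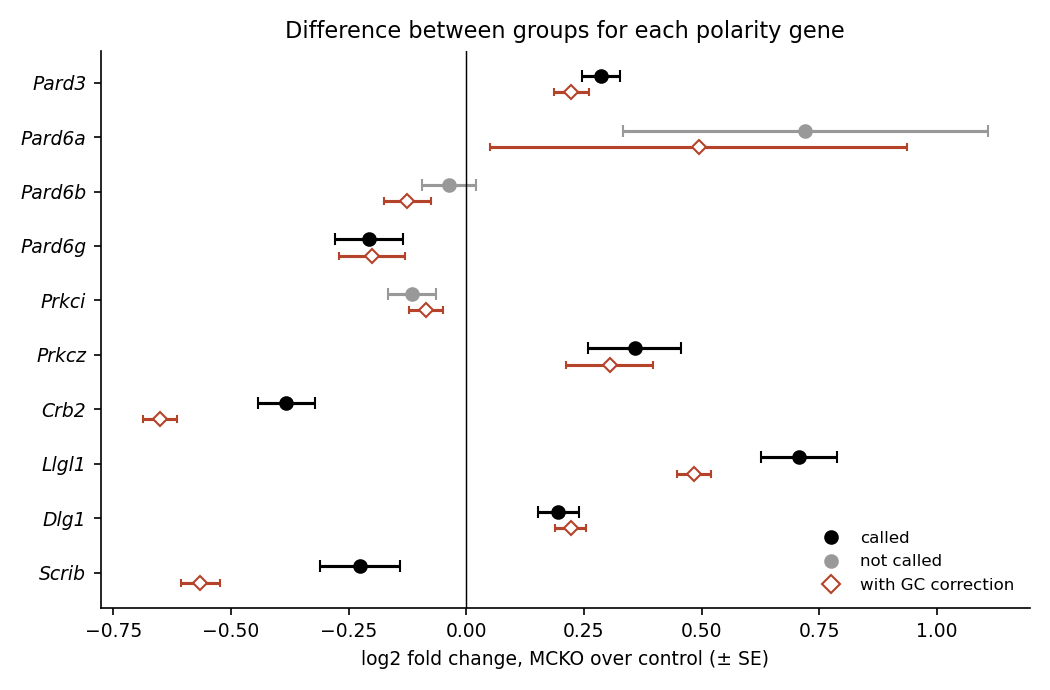
Log2 fold change of each polarity gene, MCKO over control, with its SE as a bar (circles, black where called and grey where not), and the same with a GC correction (open diamonds). Crb2 and Scrib lie further below 0 and Llgl1 nearer to 0 with the correction, at -0.65, -0.56 and 0.48, and Pard3 and Dlg1 at 0.22 each.

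Ratios of 2 genes within a library do not depend on the scaling of libraries, and Llgl1, Scrib and Crb2 are also alike in GC content. The pairs given here were chosen after their values were seen and are a description without a test. Llgl1 counts were 1.89, 1.90 and 1.97 times the Scrib counts in MCKO libraries, against 0.985, 1.005 and 1.03 times in control libraries. Llgl1 counts were 2.63, 2.54 and 2.61 times the Crb2 counts in MCKO libraries, against 1.18, 1.29 and 1.18 times in control libraries. Both ratios varied far less within groups than between them. Llgl1 against Prkci, a basolateral substrate against the apical kinase, stood at 2.33, 2.34 and 2.55 in MCKO libraries, against 1.32, 1.63 and 1.17 in control libraries. Pard3 against Prkci stood at 1.51, 1.49 and 1.499 in MCKO libraries, against 1.14, 1.195 and 1.08 in control libraries. Prkci, at 44.5% GC, is unlike Llgl1, at 58.3%, and Pard3, at 52.8%, in GC content. With the GC correction the log2 fold changes of Llgl1 and Prkci were 0.48 and -0.085, against 0.71 and -0.12 without it. The part of GC content in these 2 ratios was not tested.

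**Figure D4:**
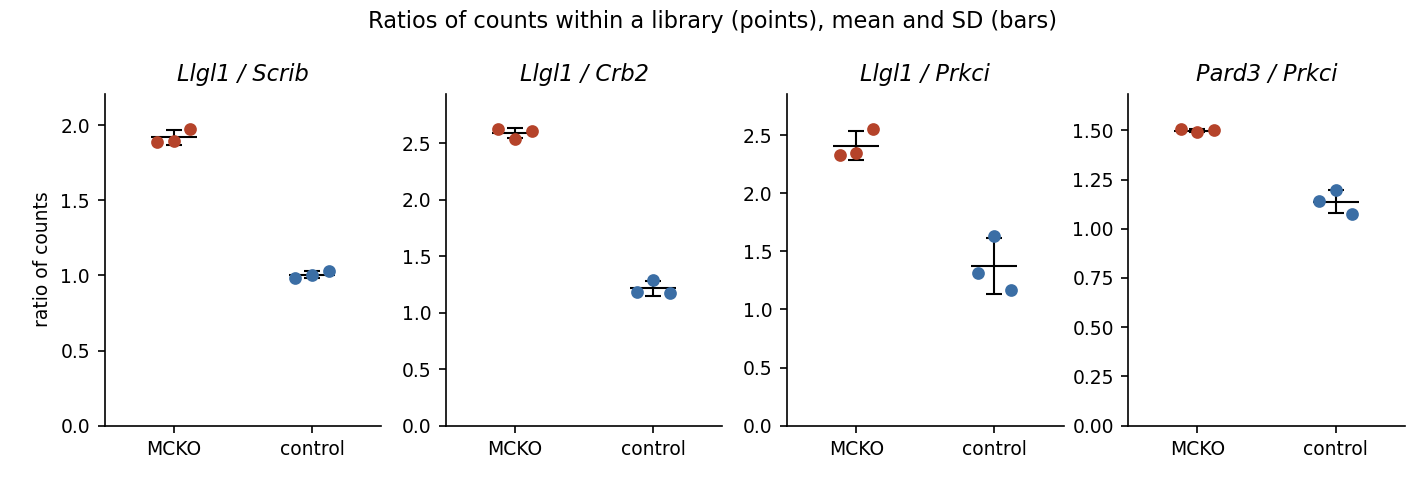
Ratio of the counts of 2 polarity genes in the same library (points, 3 per group, MCKO left and control right), with the group mean and SD as bars and axes from 0. Llgl1 over Scrib averages 1.92 ± 0.048 in MCKO and 1.005 ± 0.021 in controls, and none of the 4 ratios overlaps between the groups. That follows from the CPM of the single genes, which lie apart in opposite directions in each pair.

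The start regions of Llgl1 and Crb2 are shown because these were the called members with the highest and the lowest log2 fold change. Each is the RefSeq window on GRCm38.p6 from 250 bases before to 50 bases after the transcript start, at chr11:60699450-60699749 and chr2:37775999-37776298, both on the plus strand, written 5′ to 3′. Capitals mark the core of the hypoxia response element, searched as ACGTG and GCGTG on both strands, where matches on opposite strands may overlap. That core was picked with earlier results of these data known.
Llgl1: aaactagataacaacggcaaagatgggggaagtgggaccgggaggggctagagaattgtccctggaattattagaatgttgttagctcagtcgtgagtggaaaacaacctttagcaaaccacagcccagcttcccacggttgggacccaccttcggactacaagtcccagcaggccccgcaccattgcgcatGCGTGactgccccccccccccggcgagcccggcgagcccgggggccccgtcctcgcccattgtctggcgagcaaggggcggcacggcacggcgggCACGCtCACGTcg
Crb2: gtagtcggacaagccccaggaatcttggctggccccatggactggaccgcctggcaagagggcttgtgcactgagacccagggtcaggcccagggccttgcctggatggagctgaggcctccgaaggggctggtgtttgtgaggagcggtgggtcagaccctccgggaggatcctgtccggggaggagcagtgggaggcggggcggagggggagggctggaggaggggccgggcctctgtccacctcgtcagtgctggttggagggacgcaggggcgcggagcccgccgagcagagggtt
The Llgl1 window holds the core 3 times, 1 time on the plus and 2 times on the minus strand, and the Crb2 window does not hold it. The window of Prkci holds it 4 times and that of Pard6b 3 times, and neither gene was called. Of the 8 members with a window, 7 have at least 1 match. The share of all genes with at least 1 match was not counted, and a gene with more windows has more places for one. At least 1 match stands in 12 of the 15 windows of members and in 43.8% of the 32851 windows of all genes. Those 15 belong to 8 members, all but Pard6g and Scrib, and windows of 1 gene can share sequence. Both forms of the core contain CG, and the GC content of the windows was not compared between members and all genes. A match is a description of these letters and not a binding site.

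Among the partners and substrates of PAR3 and of the PAR6-aPKC unit, called genes included exchange factors and adaptors. Of 17 genes, all tested, 7 were called higher and 2 lower, 52.9% against 58.4% of all genes, with a median log2 fold change of 0.058. Tiam1, a Rac activator that binds PAR3, was at 110.9 ± 1.9 CPM in MCKO and 53.6 ± 0.58 CPM in controls (SD, n = 3 each), a log2 fold change of 1.11 (SE 0.041, edgeR adjusted p = 4.74e-08). Its relative Tiam2 fell to 6.38 ± 0.52 CPM in MCKO, against 12.3 ± 1.4 CPM in controls. Wwc1, which encodes the aPKC-binding protein KIBRA, fell by 0.91 (SE 0.069). Sqstm1, the aPKC-binding adaptor p62, rose by 0.66 (SE 0.045), with 16.4% of its words shared with another gene, mainly Mrnip. Afdn, which encodes the junction scaffold afadin, was at 664.6 ± 18.6 CPM in MCKO and 491.3 ± 18.3 CPM in controls. Pard3b, the relative of Pard3, was at 10.9 ± 0.83 CPM in MCKO and 10.9 ± 0.73 CPM in controls and was not called.

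The other genes of the Crumbs complex and its inhibitors went both ways. Among 12 genes 11 could be tested, with 2 higher and 4 lower, 54.5% against 58.4%, with a median of 0.015. Crb3, the Crumbs gene of many epithelia, rose to 0.615 ± 0.065 CPM in MCKO, against 0.16 ± 0.043 CPM in controls, so it stayed far below Crb2 in both groups. Crb1 was not tested, with 0 to 5 counts in MCKO libraries and 0 to 13 in control libraries. Amot, which encodes the PATJ-binding protein angiomotin, fell by 0.42 (SE 0.043), and Epb41l5, a FERM protein that restrains Crumbs, by 0.39 (SE 0.043). Mpdz, a multi-PDZ relative of Patj, fell by 0.29 (SE 0.061), and Lin7a, a small PDZ adaptor, fell to 0.204 ± 0.096 CPM in MCKO, against 0.692 ± 0.22 CPM in controls. Epb41l4b was called higher at 0.44 (SE 0.15, edgeR adjusted p = 0.0296), a call lost without MCKO replicate 1 or 2 or control replicate 1, 2 or 3 (adjusted p = 0.0509 to 0.118), with library totals only (0.0535) and with DESeq2 (0.141). The central adaptor genes Mpp5 (PALS1), at 53.8 ± 7.7 CPM in MCKO and 42.5 ± 12.6 CPM in controls, and Patj, at 26.03 ± 2.0 CPM in MCKO and 24.8 ± 1.5 CPM in controls, were not called.

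Relatives of the Scribble module were mostly not called, with 2 higher and 2 lower among 11 tested of 12, 36.4% against 58.4%, and a median of 0.047. Dlg4 (PSD-95) rose to 44.7 ± 2.0 CPM in MCKO, against 30.8 ± 1.8 CPM in controls, and Dlg2 (PSD-93) fell to 1.52 ± 0.15 CPM in MCKO, against 3.36 ± 0.34 CPM in controls. Nhsl1 rose by 0.49 (SE 0.073) and Nhs fell by 0.51 (SE 0.10), relatives of a fly protein that binds Scribble and Dlg. Llgl2, the paralog of Llgl1, was at 74.8 ± 5.4 CPM in MCKO and 69.7 ± 11.3 CPM in controls and was not called (log2 fold change 0.17, SE 0.12, edgeR adjusted p = 0.258). With the GC correction 7 members of this list were called in place of 4.

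In the PAR-1 kinase, LKB1 and 14-3-3 group, 15 of 16 genes were tested and 3 rose and 4 fell, 46.7% against 58.4%, with a median of 0.059. The higher ones were the PAR-1 kinase genes Mark2, at 0.22 (SE 0.056), and Mark4, at 0.55 (SE 0.17), and Stk11 (LKB1), at 0.32 (SE 0.11). None of these 3 was called with the GC correction, at 0.032, 0.22 and 0.044, a setting that moves the median of all tested genes to -0.046. The lower ones were Cab39l, an LKB1 partner, at -0.46 (SE 0.069), and the 14-3-3 genes Ywhab at -0.42 (SE 0.038), Ywhaq at -0.36 (SE 0.038) and Ywhae at -0.10 (SE 0.039). Ywhaq shares 32.3% of its words with other genes, retrocopies among them. Without MCKO replicate 2 or 3 only 4 genes of this list were called. Mark4 was lost without MCKO replicate 2 or 3 or control replicate 2 (adjusted p = 0.0619 to 0.0957), Stk11 without MCKO replicate 2 or 3 or control replicate 1 (0.0722 to 0.108) and with library totals only (0.0667). Without control replicate 3 Stk11 stood at 0.21. Ywhae was lost with any library but control replicate 2 left out (0.0921 to 0.142) and with no filter on low counts (0.113), and stood at -0.17 with library totals only.

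Junction receptors and scaffolds that bind PAR3 or its partners split as well, with 5 higher and 4 lower of 11 tested, 81.8% against 58.4%, with a median of 0.24. The junctional adhesion molecules, whose tails bind PAR3, went both ways. F11r (JAM-A) rose to 122.2 ± 5.3 CPM in MCKO, against 77.6 ± 2.3 CPM in controls, a log2 fold change of 0.72 (SE 0.048, edgeR adjusted p = 2.12e-06). Jam2 fell by 0.76 (SE 0.10) and Jam3 by 0.61 (SE 0.054), with 32.2% of Jam3 words shared with another gene. The cadherin genes Cdh2 and Cdh5 rose by 0.25 (SE 0.040) and 0.28 (SE 0.041). The junction scaffold gene Tjp1 rose by 0.24 (SE 0.055). Nectin2 rose by 0.33 (SE 0.075), or by 0.11 with the GC correction (adjusted p = 0.0155), and Nectin3 fell by 0.34 (SE 0.057).

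**Figure D5:**
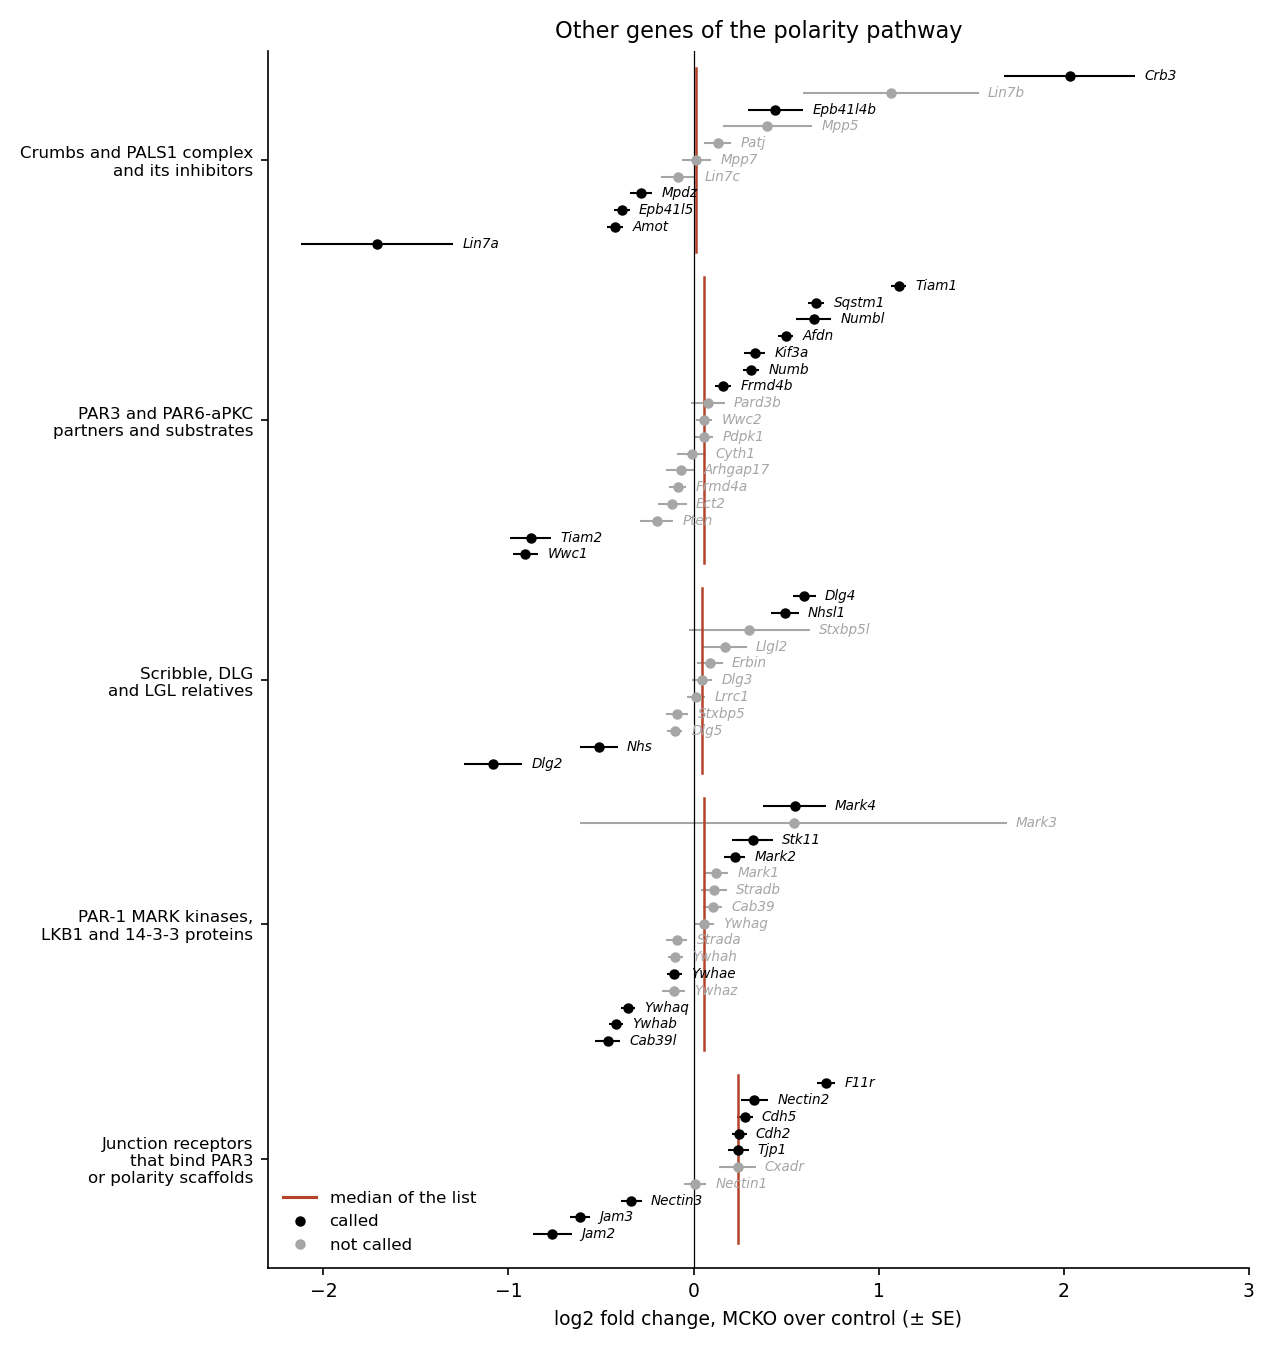
Log2 fold change, MCKO over control, with SE, of tested genes of the 5 pathway lists (black where called, grey where not), with the median over all tested genes of each list as a vertical line. Tiam1, at 1.11, and F11r, at 0.72, stand to the right of their lists, Wwc1, at -0.91, and Jam2, at -0.76, to the left.

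Markers of other cell types differed between the same libraries, and their part in the values above was not tested. The counts of genes called in each list stand against 58.4% of all tested genes called, 29.3% higher and 29.1% lower. Of 12 endothelial genes, all tested, 10 were higher and 2 lower (Tek and Npr3), with a summed level of 1307 to 1337 CPM in MCKO and 1148 to 1169 CPM in controls. Pecam1 stood at a log2 fold change of 0.70 (SE 0.039). All 11 tested epithelial genes of 12 were higher, summing to 651.5 to 726.3 CPM in MCKO and 197.8 to 217.4 CPM in controls. Without Krt19 and Sox17, which other lists hold as well, the epithelial sum was 265.2 to 286.7 CPM in MCKO and 155.1 to 169.1 CPM in controls. Crb3 was higher as well, on 23, 14 and 15 counts in MCKO libraries and 4 in each control library. The 10 polarity members went both ways, with 4 called higher and 3 lower. Of 9 tested epicardial genes of 10, 7 were lower and only Krt19 was higher, and without Krt19 the list summed to 87.3 to 90.4 CPM in MCKO and 219.9 to 229.6 CPM in controls. Lrrn4 stood at -2.63 (SE 0.089). Of 8 tested cushion and neural crest genes of 9, 7 were lower, among them Postn at -3.13 (SE 0.11), with a sum of 195.8 to 204.1 CPM in MCKO and 475.6 to 498.1 CPM in controls. All 9 red cell genes were higher, at 6508 to 6919 CPM in MCKO and 3106 to 3401 CPM in controls. Of 7 tested neural tube genes of 10, 4 were higher and 2 lower (Tubb3 and Dll1), at 394.5 to 397.9 CPM in MCKO and 328.2 to 365.3 CPM in controls, and Olig2 had 1 count in MCKO and 0 in controls. Nes made up most of that sum, and without it the neural tube list summed to 11.9 to 13.1 CPM in MCKO and 28.8 to 35.2 CPM in controls. Of 14 heart muscle genes, 5 were higher and 2 lower (Myl2 and Nppa), so 7 of 14 were called.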

How the data were processed

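The authors deposited estimated counts for each Ensembl gene, unscaled for depth or length. The submitters' processing notes list kallisto and mm10 without versions; transcript set, gene summing and strand setting: not given in the sources used here. Per the labels' protocols, an Aurum kit was used for RNA and a stranded TruSeq mRNA kit for libraries. The MCKO columns, headed CKO, were matched to the titles through stage and number. Of 30323 IDs, 29857 matched a symbol (GENCODE M21).

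The comparison of groups used edgeR 4.0.16 under R 4.3.3 (filterByExpr, TMM, robust quasi-likelihood fit, group as the only term, 2-sided, Benjamini-Hochberg adjustment over 14697 genes, called under 0.05). SE is the log2 fold change divided by the root of F. DESeq2 1.42.0 was an alternative. The test was tried on simulated counts. CPM uses library totals, log2 fold changes TMM. Floors cover counting error only. Tables were made with Python 3.11.15.

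Words of 31 bases were compared over all GENCODE M21 transcripts on both strands. The members and lists were chosen with earlier results of these data known. All members, Cdc42, up to 4 called genes per pathway list by smallest p, counts of 5 or fewer, and up to 2 per marker list are named, with Pard3b, Mpp5, Patj, Llgl2, Crb1 and Nes added after their values were seen; 1 called gene of the junction list is counted but not reported here by name. Replicates differed by more than sampling noise (chi-square per degree of freedom 3.58 to 15.4 within groups).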

Additional observations from a re-analysis of the deposited data

How the results depend on the processing

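Each gene had 13 alternatives, but Crb3 and Lin7a, which did not reach 50 counts in 3 libraries, had 12. The GC correction was chosen after seeing the data. Cdc42, Pard3, Prkcz, Crb2, Llgl1 and Dlg1 kept direction and call in all 13. The count of members called was 5 to 7 with each library left out and 6 to 8 in the other settings. Over all genes it was 7452 to 8695 with each library left out and 7765 to 9482 otherwise. Library totals made 42.6% and the GC correction 44.4% of all calls higher, against 50.2%.

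The leave-one-out log2 fold changes were 0.41 to 1.09 for Pard6a, -0.058 to 0.0016 for Pard6b, -0.25 to -0.16 for Pard6g, -0.15 to -0.082 for Prkci and -0.31 to -0.13 for Scrib. Pard6b was -0.13 and called with the GC correction, Prkci -0.18 and called with library totals, and Pard6g -0.21 and not called with DESeq2. With the replicate block Pard6g was -0.21 (adjusted p = 0.0757), and 7765 genes were called; Epb41l4b (0.0538) and Ywhae (0.117) also lost their calls; same-numbered libraries correlated at -0.0047, 0.022 and -0.13 in their deviations, and 1 of 6 correlated best with its own number, so the numbers were not taken as pairs. The PAR-1, LKB1 and 14-3-3 list had 4 to 8 calls with each library left out, against 7, and the Scribble relatives 7 with the GC correction, against 4. The cause was not tested. Of 557 values for 43 other named genes, 25 lost a call and none reversed. With other lengths, Prkcz was 11.9% (exon union) or 13.3% (no length) of the aPKC pair in MCKO and 8.89% or 9.995% in controls. Without length, Pard6a was 5.74% of its family in MCKO and 3.25% in controls. Depth limits Pard6a, with 21 to 104 counts a library.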
